A study of Homo sapiens with 18 samples.

Results

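Fatty acid synthesis, desaturation and the control of lipolysis were followed through 10 genes: ACLY and ACSS2, which supply acetyl-CoA, ACACA and FASN, which build the saturated chain, ELOVL6, SCD, FADS1 and FADS2, which lengthen and desaturate it, and PNPLA2 and G0S2, a triglyceride lipase and its inhibitor. The genes were chosen by name, with the changes of SCD and G0S2 in pair 2 (4N-2 against 2N-2) already known, so their values in pair 2 are given as a description, with no test. Of the 57773 genes listed in the deposited table, 9 of the 10 were found by Ensembl identifier. ACACA, which encodes the cytosolic acetyl-CoA carboxylase, was not matched by identifier and is not analysed here. All 9 genes found passed the filter on low values, which asked for 1 read per M (M, mega) or more in 3 or more libraries.

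RPE1 cells, an immortalised human retinal pigment epithelial line, gave all libraries. All 6 clones, diploid ones included, descended from cells that spent 72 h in 2.5 uM ZM447439, an inhibitor of Aurora kinases that blocks cell division, and then grew for some weeks before single cells were cloned. Tetraploid clones 4N-1, 4N-2 and 4N-3 were each paired with a diploid clone from the same plates, 2N-1, 2N-2 and 2N-3, and only 4N-2 and 2N-2 were labelled with Hoechst 33342 before sub-cloning. Each clone had 3 libraries (A, B and C) that the submitters call biological replicates, 18 in all, and each pair is 1 clone against 1 clone, so clone and ploidy cannot be told apart within a pair.

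Long-chain fatty acids are made in the cytosol from acetyl-CoA, which ATP citrate lyase (ACLY) cleaves from citrate and acetyl-CoA synthetase 2 (ACSS2) makes from acetate. Fatty acid synthase (FASN) builds palmitate, ELOVL6 extends it to stearate, and stearoyl-CoA desaturase (SCD) introduces the double bond that gives oleate and palmitoleate, while FADS1 and FADS2 desaturate polyunsaturated chains. Many of these genes are targets of the sterol regulatory element binding proteins (SREBPs), encoded by SREBF1 and SREBF2. SCAP is the escort of these proteins, and INSIG1 retains their complex in the endoplasmic reticulum. Stored triglyceride is opened by adipose triglyceride lipase (PNPLA2), which the small protein G0S2 inhibits.

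Sequence was taken from RefSeq (GRCh38.p14), as the 250 bases before the RefSeq start of each gene. Of the 9 genes 8 had an entry, and FASN had none. The windows of ACLY, ACSS2, ELOVL6, FADS1 and FADS2 lie wholly inside the GENCODE v29 span of the gene. Protein-coding exons of FADS1 cover 194 of the 250 bases in the FADS1 window and 196 in the FADS2 window. Motifs were counted over whole windows, exon bases included. Both strands were searched for the sterol regulatory element core TCACNCCA, the NF-Y box CCAAT, the GC box GGGCGG and the E box CACGTG. TCACNCCA was found in 1 of the 8 genes (PNPLA2), CCAAT in 3 (SCD, ACLY and ACSS2), GGGCGG in 6 and CACGTG in 0. Among 35116 RefSeq promoters these motifs were present in 3.20%, 32.0%, 42.6% and 6.34%. The sequences of SCD and G0S2 are shown because these genes had the widest ranges of level among the clones, and that of ACLY because it had the narrowest; capitals mark CCAAT on either strand (ATTGG on the other), and bases of protein-coding exons were left out.
SCD, chr10:100346983-100347123, plus strand: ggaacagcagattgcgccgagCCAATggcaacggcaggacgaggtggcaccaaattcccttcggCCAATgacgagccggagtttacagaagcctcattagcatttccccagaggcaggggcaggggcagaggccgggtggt
ACLY, chr17:41919023-41919272, minus strand: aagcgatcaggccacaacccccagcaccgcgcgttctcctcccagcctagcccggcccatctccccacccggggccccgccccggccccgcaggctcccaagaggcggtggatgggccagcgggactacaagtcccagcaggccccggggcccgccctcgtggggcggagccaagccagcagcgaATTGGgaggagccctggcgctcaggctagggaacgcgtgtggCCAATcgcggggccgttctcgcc
G0S2, chr1:209675162-209675411, plus strand: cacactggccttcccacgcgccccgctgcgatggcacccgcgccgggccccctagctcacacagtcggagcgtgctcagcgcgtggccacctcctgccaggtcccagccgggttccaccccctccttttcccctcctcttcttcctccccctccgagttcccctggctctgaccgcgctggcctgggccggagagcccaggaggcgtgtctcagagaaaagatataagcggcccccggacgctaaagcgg
The SCD boxes begin 229 and 186 bases before the RefSeq start and those of ACLY 65 and 23 bases before it. G0S2 has none in this window. These are matches of letters in a window and were not measured as binding sites.

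Levels are reads per M, the reads recovered from the deposited RPKM values over the library divisor those values imply, and they are shares of a library, so fewer cells with a transcript and less transcript per cell cannot be told apart. The libraries held 37.2 to 54.4 M reads in genes. In a principal component analysis of all tested genes, 1 library of 2N-3 (A) and 1 of 4N-3 (C) stood apart from the other libraries of their clones, so the main results in pair 3 are also given without this A and C. Of 13 retinal pigment epithelium markers, 7 (RPE65, RLBP1, TYR, TYRP1, PMEL, DCT and TTR) were under 1 read per M in all 18 libraries. MITF lay at 14.8 to 23.3, OTX2 at 21.6 to 46.5, KRT8 at 200.1 to 410 and KRT18 at 261 to 491. BEST1 lay at 1.17 to 7.48 and SERPINF1 at 0.367 to 1.19. Summed markers of adipocytes came to 0.957 to 2.92 reads per M over the 18 libraries. Of these 9 markers, 8 were under 1 in every library, and LPL was at 0 in 12 libraries. FABP4 was at 1 or more in 3 libraries, with a mean of 1.85 ± 0.288 in 4N-2 (SD, n = 3 libraries). Its means in the other clones were 0.175 to 0.326. Summed markers of hepatocytes came to 0.359 to 1.40, with all 9 under 1 and APOA2 at 0 throughout. The 8 blood cell markers summed to 28.4 to 149, nearly all of it CD68 (26.8 to 148), with CD3E and HBB at 0 in all libraries.

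**Figure D1:**
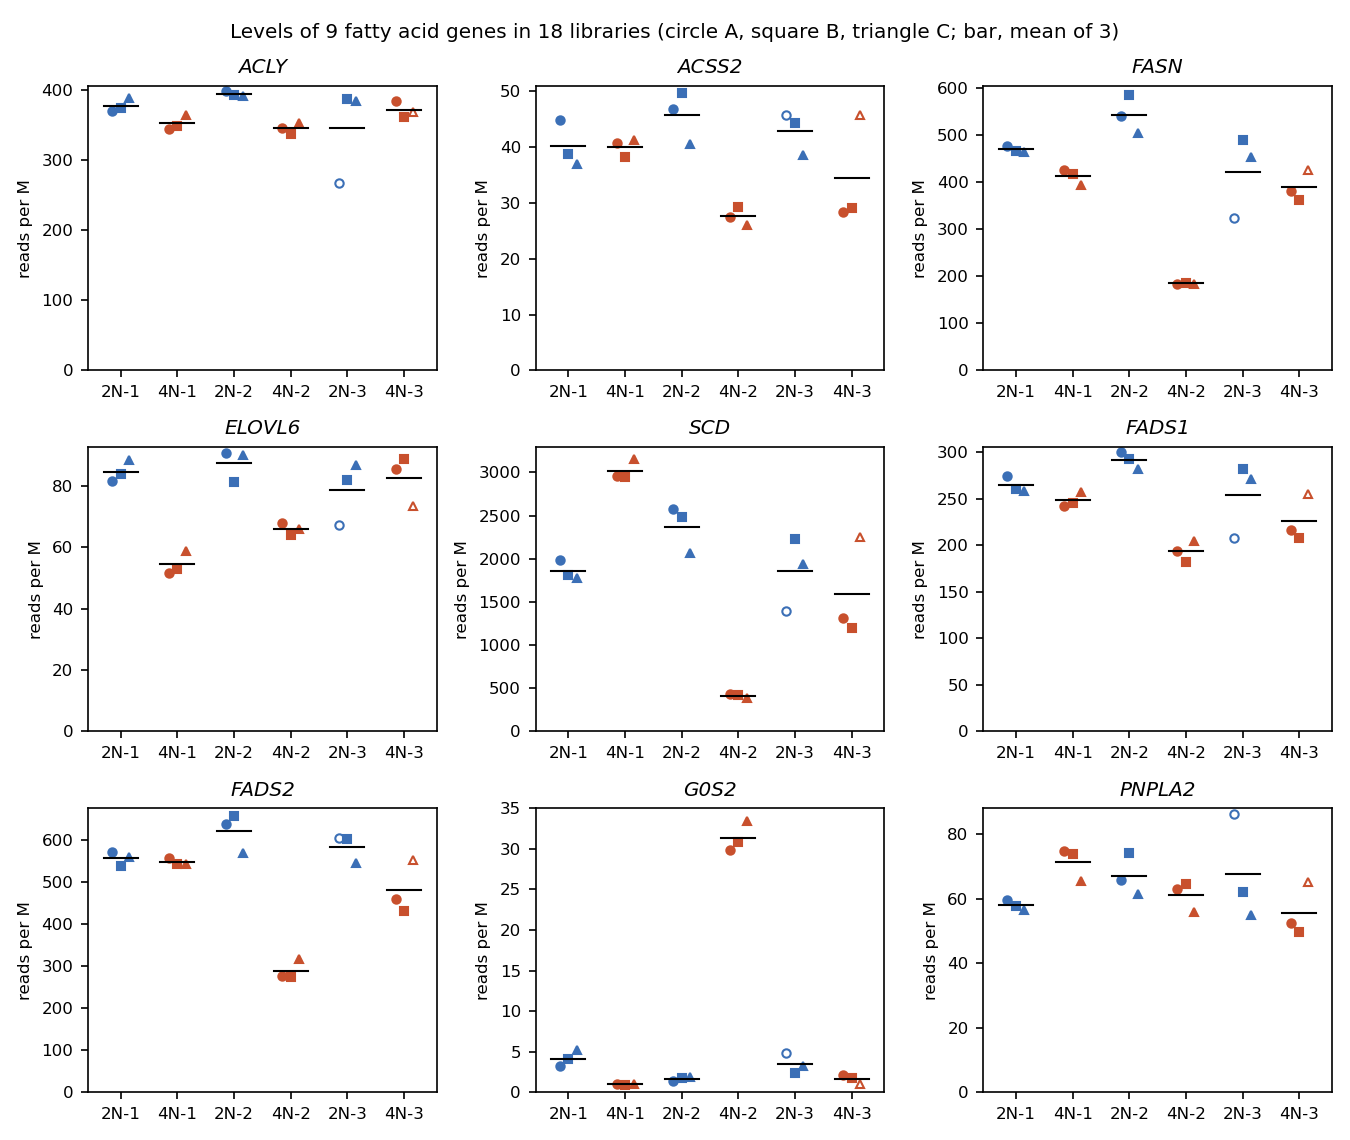
Level of each of the 9 genes in reads per M (vertical axis, linear, from 0) in the 3 libraries of the 6 clones (blue, diploid; orange, tetraploid; circle A, square B, triangle C; bar, mean of 3; open symbols, the 2 libraries that stood apart). SCD, FASN and FADS2 are low in all libraries of 4N-2, G0S2 is high only there, and ACLY spans 268 to 399 reads per M over all libraries.

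Among the genes of acetyl-CoA supply, ACLY (ENSG00000131473; chromosome 17, 41866908 to 41930542, minus strand; positions here and below are of GENCODE v29 on GRCh38, not of the authors' hg19) varied least. Its means lay between 345 ± 7.86 (4N-2) and 395 ± 4.17 reads per M (2N-2; SD, n = 3 libraries here and below), a ratio of 1.14. The lowest single value, 268, was library A of 2N-3, whose other libraries gave 387 and 384. ACSS2 (ENSG00000131069; chromosome 20, 34872146 to 34927962, plus strand) was lower than ACLY also per kilobase of exon. Its 3 libraries gave 27.4, 29.3 and 26.0 reads per M in 4N-2 and 46.8, 49.7 and 40.5 in 2N-2, so these clones did not overlap. In 4N-3 the level was 28.4 and 29.1 in libraries A and B and 45.6 in library C, the last inside the range of the diploid clones. ACSS2 shares 715 bases with GGT7 on the opposite strand. GGT7 held 96.6% as many reads as ACSS2, and reads in the shared bases may be mixed, since use of the strand in counting is not given.

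FASN (ENSG00000169710; chromosome 17, 82078333 to 82098332, minus strand) was lowest in 4N-2, at 183, 186 and 184 reads per M, and highest in 2N-2, at 541, 583 and 504. The 4 other clones had means between 389 and 469. Every library of 4N-2 lay below every library of the other 5 clones, the nearest of which was library A of 2N-3 at 324.

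ELOVL6 (ENSG00000170522; chromosome 4, 110045846 to 110199199, minus strand) had a different low clone. It was lowest in 4N-1, at 51.7, 53.0 and 58.8 reads per M, then in 4N-2 at 67.7, 63.8 and 65.9. The diploid clones and 4N-3 had means of 78.7 to 87.4, and library A of 2N-3 (67.2) lay at the level of 4N-2.

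SCD (ENSG00000099194; chromosome 10, 100347124 to 100364834, plus strand) was the most abundant of the 9 genes and made up 23.8% to 64.7% of their summed reads per M. Its libraries gave 1989, 1811 and 1775 reads per M in 2N-1 and 2962, 2949 and 3157 in 4N-1, the highest clone. Pair 2 ran the other way, with 2573, 2485 and 2064 in 2N-2 and 434, 426 and 387 in 4N-2, the lowest clone. In pair 3 the clones overlapped, with 1396, 2234 and 1943 in 2N-3 and 1319, 1203 and 2249 in 4N-3. In 2N-3, library A lay at 0.668 times the mean of the other 2, and in 4N-3 library C lay at 1.78 times. A gene listed only by identifier, ENSG00000256545, had 45.5% to 49.3% of the SCD level in every library (Pearson r of 0.9995 over 18 libraries), so reads may be shared between these entries and the level of SCD is uncertain to that extent.

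FADS1 and FADS2, the delta-5 and delta-6 desaturases, are neighbours: FADS1 (ENSG00000149485; chromosome 11, 61799625 to 61829318, minus strand) lies wholly inside the span of FADS2 (ENSG00000134824; chromosome 11, 61792980 to 61867354, plus strand), which also shares 4265 bases with FEN1 on the same strand. The library kit marks strand, but use of the strand in counting is not given in the sources used here, so the reads of these genes may be mixed. FADS2 was at 276, 274 and 317 reads per M in 4N-2 and at 639, 657 and 570 in 2N-2. The other clones had means of 480 to 584, so 4N-2 was again the only clone whose libraries all lay below those of the other 5. FADS1 moved less, from a mean of 194 ± 11.0 in 4N-2 to 292 ± 8.87 in 2N-2.

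PNPLA2 (ENSG00000177666; chromosome 11, 818902 to 825573, plus strand), the lipase, had means of 55.8 (4N-3) to 71.4 reads per M (4N-1), and each clone overlapped the next in order. G0S2 (ENSG00000123689; chromosome 1, 209675420 to 209676388, plus strand), its inhibitor, was at 29.9, 30.8 and 33.4 reads per M in 4N-2 and at 1.39, 1.73 and 1.85 in 2N-2. In pair 1 it ran the other way, at 3.29, 4.07 and 5.17 in 2N-1 and 1.09, 0.860 and 1.03 in 4N-1. In 2N-3 the libraries gave 4.90, 2.39 and 3.26 and in 4N-3 2.09, 1.77 and 1.03. These levels rest on 41 to 1489 reads per library, the fewest among the 9 genes. An antisense gene, AL031316.1, covers all 969 bases of G0S2 and held 5.86% as many reads. Another, AP006621.1, shares 1940 bases with PNPLA2 and held 5.65% as many reads as PNPLA2.

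Ordered by mean level, 2N-2 was the highest clone for 6 of the 9 genes and 4N-2 the lowest for 6, as a description of these clones. How often these clones were highest or lowest over all genes was not counted, so whether this is particular to these genes is not known. The ratio of the highest to the lowest clone mean was 31.6 for G0S2, 7.27 for SCD, 2.94 for FASN, 2.15 for FADS2 and 1.66 or less for the other 5. For SCD the order was 4N-1, 2N-2, 2N-1, 2N-3, 4N-3 and 4N-2, in which the libraries of 2N-1 and 2N-3, and of 2N-3 and 4N-3, overlapped while the other neighbours did not. For G0S2 the order was 4N-2, 2N-1, 2N-3, 2N-2, 4N-3 and 4N-1, with overlap between 2N-1 and 2N-3, between 2N-2 and 4N-3 and between 4N-3 and 4N-1. For FASN only the first and the last steps, from 2N-2 to 2N-1 and from 4N-3 to 4N-2, were free of overlap. Per kilobase of merged exon, the median level over the clones was 346 reads per M per kb for SCD, 69.4 for ACLY, 50.01 for FADS2, 44.5 for FASN, 24.6 for FADS1, 16.7 for PNPLA2, 11.0 for ELOVL6, 7.44 for ACSS2 and 2.99 for G0S2. The deposited values imply gene lengths with introns included, and whether reads in introns were counted is not known. The order per kilobase of exon is therefore uncertain for genes with long introns.

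Pair 2, the pair whose changes were known when the genes were chosen, showed the widest differences of SCD, FASN, FADS2 and G0S2 among the 3 pairs. The libraries of 4N-2 lay below those of 2N-2 without overlap for 7 of 9 genes, above for G0S2 and with overlap for PNPLA2; over all 17701 genes tested the libraries did not overlap in 33.6% (lower) and 34.3% (higher). The level was lower in 4N-2 by a ratio of means of 5.71 for SCD, 2.94 for FASN, 2.15 for FADS2, 1.66 for ACSS2, 1.51 for FADS1, 1.33 for ELOVL6 and 1.14 for ACLY. G0S2 was higher by a ratio of 18.9. Of the 9 genes, 3 were lower by 2-fold or more on the log2(reads per M + 0.5) scale, beside 4.9% of all genes tested. On that scale the log2 change (4N over 2N, as in all pairs) was -2.51 (SE 0.19) for SCD, -1.55 (SE 0.12) for FASN and 3.89 (SE 0.21) for G0S2, and the median of the 9 genes was -0.59, beside 0.00 for all genes tested.

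Both clones of pair 2 can be set beside the other clones of their ploidy. The SCD mean of 4N-2 was 5.55 times lower than the mean of 4N-1 and 4N-3, FASN was 2.17 times and FADS2 1.78 times lower, and G0S2 was 23.9 times higher. ACLY, ELOVL6 and PNPLA2 in 4N-2 were at 0.954 to 0.963 times the other tetraploid clones. In 2N-2, SCD was at 1.28 and FASN at 1.22 times the mean of 2N-1 and 2N-3, and G0S2 at 0.431 times.

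Pair 1 was tested with limma across all 17701 genes, with Benjamini-Hochberg adjustment. SCD rose in 4N-1, while ELOVL6 and G0S2 fell, and the other 6 genes did not pass the test at an adjusted p of 0.05. This is 1 of 9 genes higher, beside 12.9% of all genes tested, and 2 of 9 lower, beside 11.8%. SCD rose from 1858 ± 114 to 3022 ± 116 reads per M, a log2 change of 0.70 (SE 0.19, adjusted p = 0.0142), and higher in all 3 libraries; without library C of 2N-1 the change was 0.67 and no longer passed (adjusted p = 0.0537). ELOVL6 fell from 84.6 ± 3.58 to 54.5 ± 3.73, a log2 change of -0.63 (SE 0.10, adjusted p = 1.56e-04). G0S2 fell from 4.18 ± 0.945 to 0.992 ± 0.119, a log2 change of -1.63 (SE 0.21, adjusted p = 3.48e-05), with no overlap between the libraries. FASN changed by -0.19 (adjusted p = 0.267) and PNPLA2 by 0.29 (adjusted p = 0.134). The libraries did not overlap between the clones for 2 of the 9 genes (higher) and 5 (lower), FASN, ACLY and FADS1 among the latter. The share of all genes without overlap in pair 1 was not counted, so these counts are not read as a result about the 9 genes. ACLY, ACSS2, FADS1 and FADS2 had log2 changes of -0.10 to 0.00 with adjusted p from 0.535 to 0.997. The median of the 9 genes was -0.09, beside 0.01 for all genes tested.

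The test shares 1 estimate of the spread over all 18 libraries. The 2 libraries that stood apart were picked because they deviated in these same data. Leaving them out narrows this spread in every pair, so p-values without them, here and below, are lower for that reason too. For FASN in pair 1 the SE went from 0.116 to 0.054 with the same change. When the 2 libraries of pair 3 that stood apart were left out, FASN (-0.19, adjusted p = 0.00703) and PNPLA2 (0.29, adjusted p = 0.00212) also passed in pair 1, for 2 genes higher and 3 lower, beside 26.7% and 24.5% of the genes then tested.

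**Figure D2:**
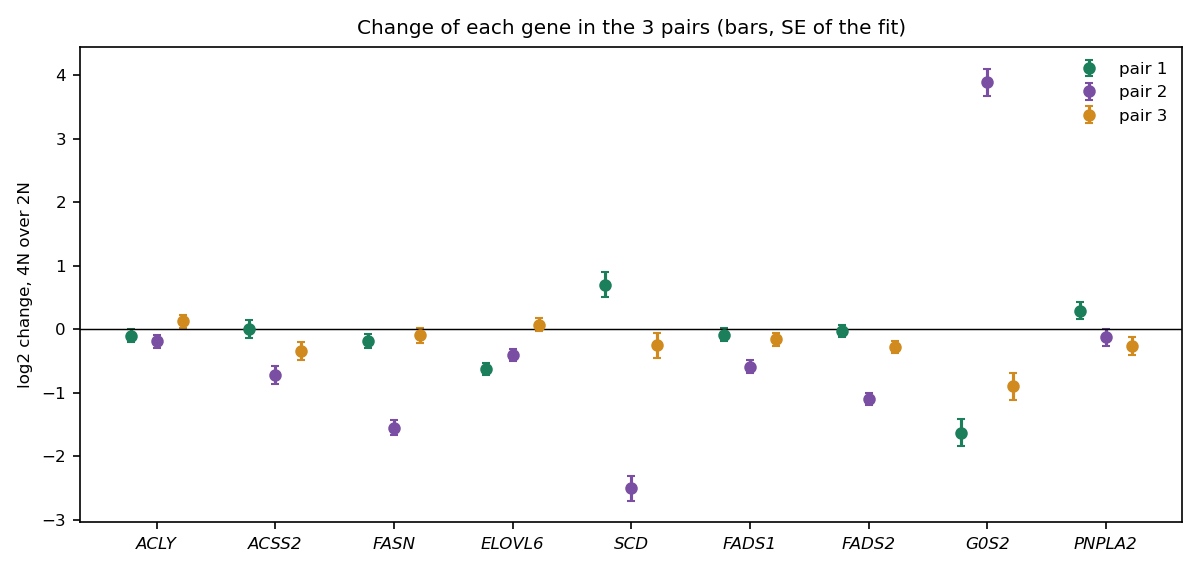
Log2 change in reads per M + 0.5, tetraploid over diploid clone (vertical axis), of the 9 genes in pairs 1, 2 and 3 (points; bars, SE of the fit). SCD and G0S2 have opposite signs in pairs 1 and 2, while ACLY stays between -0.19 and 0.12 in all 3 pairs.

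In pair 3, G0S2 was the 1 gene of 9 that passed the limma test, from 3.52 ± 1.28 to 1.63 ± 0.540 reads per M (log2 change -0.90, SE 0.21, adjusted p = 0.0127). Passing genes made up 3.67% (lower) and 4.67% (higher) of all genes tested in this pair. SCD changed by -0.25 (adjusted p = 0.406), FASN by -0.10 (adjusted p = 0.598), ACSS2 by -0.34 (adjusted p = 0.154) and FADS2 by -0.29 (adjusted p = 0.0716). The median of the 9 genes was -0.25, beside 0.02 for all genes.

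The 2 libraries that stood apart bore on most of these values. Library A of 2N-3 was below the other libraries of its clone for SCD, FASN, ACLY, ELOVL6 and FADS1 (0.668 to 0.796 times their mean) and above them for G0S2 (1.74 times) and PNPLA2 (1.48 times). Library C of 4N-3 was above its companions for SCD (1.78 times), ACSS2 (1.59 times) and FADS2 (1.24 times) and below them for G0S2 (0.536 times). Without both, with 2 libraries left in each clone, 5 of 9 genes fell in 4N-3, beside 10.3% of the genes then tested. SCD fell by 0.73 on the log2 scale (SE 0.10, adjusted p = 4.07e-05), ACSS2 by 0.51 (adjusted p = 7.12e-04), FADS1 by 0.38 (adjusted p = 1.33e-04), FADS2 by 0.37 (adjusted p = 0.00217) and FASN by 0.34 (adjusted p = 9.22e-04). G0S2 then changed by -0.45 and did not pass (adjusted p = 0.0538). Without A of 2N-3 alone 3 of the genes passed in pair 3, beside 1637 of all 17637 genes then tested. Without C of 4N-3 alone 4 did, beside 2444 of 17671. With all libraries 1477 of 17701 genes passed.

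**Figure D3:**
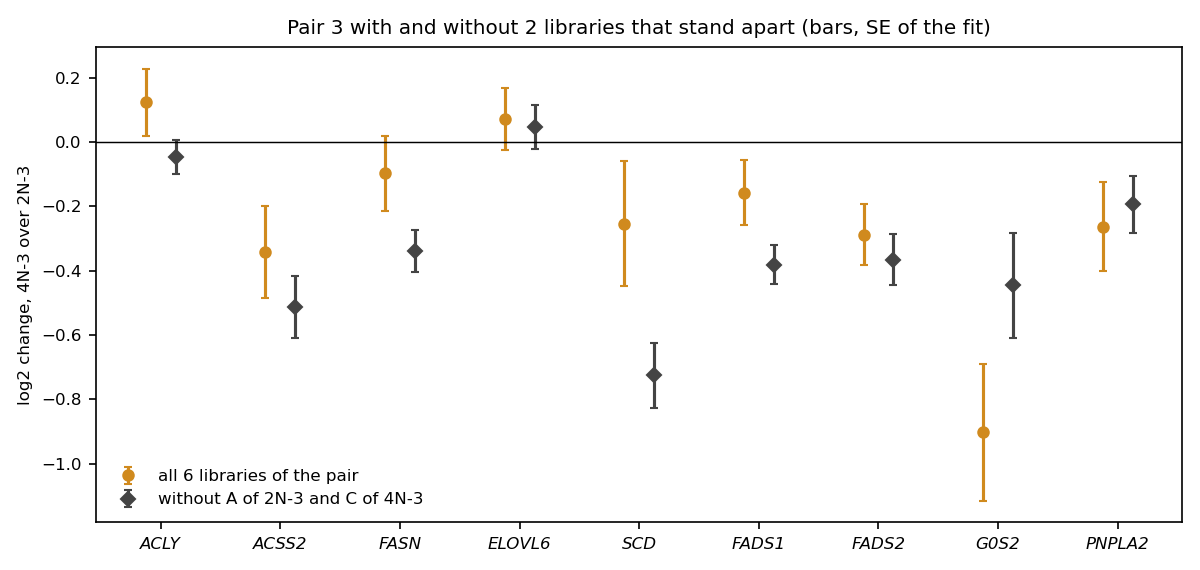
Log2 change of the 9 genes in pair 3, 4N-3 over 2N-3 (vertical axis), with all 6 libraries (circles) and without the 2 that stood apart (diamonds; bars, SE of each fit). SCD goes from -0.25 to -0.73 and G0S2 from -0.90 to -0.45.

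The difference between pairs 1 and 3 was tested directly. SCD differed by 0.96 on the log2 scale (SE 0.28, adjusted p = 0.0300) and ELOVL6 by -0.70 (SE 0.14, adjusted p = 0.00295), 1 gene higher and 1 lower of 9, beside 6.59% and 7.43% of all genes tested. The SCD call was lost in 10 alternatives: with no filter on low values, with only the clones compared, and without any 1 of 8 libraries of these pairs (adjusted p from 0.0587 to 0.0952). Without the 2 libraries that stood apart the difference was 1.43 (adjusted p = 1.67e-07, with the spread narrowed by their removal). ELOVL6 kept its call in every alternative that tested it. G0S2 (-0.73, adjusted p = 0.115) and PNPLA2 (0.56, adjusted p = 0.0658) did not pass. Without those 2 libraries, G0S2 (-1.19, adjusted p = 1.82e-04) and PNPLA2 (0.49, adjusted p = 0.00183) also passed, 7 of 9 genes in all, where 21.7% of all genes were higher and 22.9% lower. The diploid clones of these pairs showed no gene of the 9 past the threshold (2N-3 against 2N-1, beside 2.63% of all genes in either direction), with 0 at an unadjusted p under 0.05 in limma and 0 passing in limma-voom. Between the tetraploid clones, SCD was lower in 4N-3 than in 4N-1 by 0.98 on the log2 scale (adjusted p = 0.00210, beside 9.95% of genes lower), and ELOVL6 was higher by 0.59 (adjusted p = 4.39e-04, beside 11.2% higher). Without the 2 libraries, SCD differed by -1.26 and ELOVL6 by 0.67, and 8 of 9 genes passed in place of 2, where 28.7% of all genes were higher and 27.3% lower. These comparisons share their libraries with pairs 1 and 3 and are not independent of them.

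The regulators of lipid synthesis followed as a list of 16 genes, 14 of them tested. In pair 2, 6 fell (beside 23.8% of all genes) and 1 rose (beside 23.5%), which is given without weight since pair 2 bore on the choice of the genes. INSIG1, which retains the SREBP complex in the endoplasmic reticulum and is itself an SREBP target, was at 333 ± 17.2 reads per M in 2N-2 and 68.7 ± 2.99 in 4N-2 (log2 change -2.27). SREBF1 went from 192 ± 26.4 to 65.7 ± 8.52 (-1.54), MID1IP1, which promotes the polymerisation of acetyl-CoA carboxylase, from 61.8 ± 3.04 to 31.4 ± 0.976 (-0.96), and SREBF2 from 268 ± 21.96 to 158 ± 2.25 (-0.75). INSIG2 (-0.25) and PPARG (-0.30) also fell, with the call lost in 14 and 2 alternatives, and PPARD rose (0.39). SCAP, the escort of the SREBPs, changed by -0.03.

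In pair 1, 3 of the 14 tested regulators rose (21.4%, beside 12.9% of all genes) and 3 fell (21.4%, beside 11.8%). INSIG1 fell by 0.77 on the log2 scale (adjusted p = 1.48e-04), PPARG by 0.48 (adjusted p = 0.00185) and MID1IP1 by 0.22 (adjusted p = 0.0242). MBTPS1, the site-1 protease that cleaves SREBPs, rose by 0.80 (adjusted p = 5.83e-06), INSIG2 by 0.55 (adjusted p = 6.15e-04) and PPARA by 0.47 (adjusted p = 0.0423). MID1IP1 lost its call in 4 alternatives, each without 1 library of pair 1, and PPARA in 13, among them another scaling and no filter on low values. SREBF1 (0.25, adjusted p = 0.267) and SREBF2 (0.07, adjusted p = 0.670) did not pass. Without the 2 libraries of pair 3 that stood apart, SREBF1 passed with the same change (adjusted p = 0.0398).

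In pair 3, 1 regulator rose and 1 fell of 14 (7.14% each, beside 4.67% and 3.67% of all genes). MBTPS1 rose by 0.80 (adjusted p = 9.16e-06; 0.64 without the 2 libraries that stood apart) and NR1H3, a liver X receptor, fell by 0.58 (adjusted p = 0.0375), with overlapping libraries and a loss of the call in 11 alternatives. Without the 2 libraries that stood apart, 1 rose and 5 fell (beside 14.5% and 10.3% of the genes then tested). SREBF1 changed by -0.38 (adjusted p = 0.147) with all libraries and fell by 0.57 (adjusted p = 0.00196) without those 2. INSIG1 changed by -0.14 (adjusted p = 0.432) with all libraries and fell by 0.37 (adjusted p = 0.00144) without those 2. A link between these regulators and SCD was not tested in any pair.

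**Figure D4:**
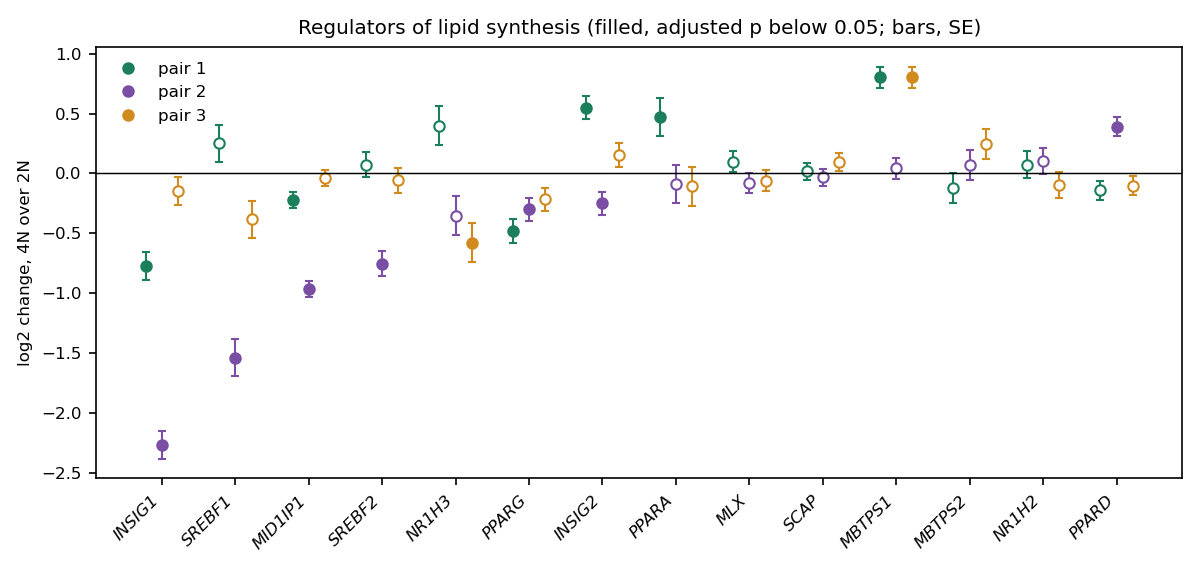
Log2 change, tetraploid over diploid clone (vertical axis), of the 14 tested regulators of lipid synthesis in pairs 1, 2 and 3 (filled points, adjusted p below 0.05; bars, SE). INSIG1, SREBF1, MID1IP1 and SREBF2 are lowest in pair 2, and MBTPS1 is at 0.80 in pairs 1 and 3.

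The other lists of the pathway are given by their counts of genes past the threshold, with the share of the list's tested genes. These shares stand beside 12.9% higher and 11.8% lower of all genes in pair 1, 23.5% and 23.8% in pair 2, and 4.67% and 3.67% in pair 3. Counts in pair 2 are again given without weight. Without the 2 libraries that stood apart, the shares of all genes became 26.7% and 24.5% in pair 1 and 14.5% and 10.3% in pair 3.

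Other desaturases and elongases did not share one direction. Of 12 tested genes, pair 1 had 5 that rose (41.7%) and 2 that fell (16.7%), pair 2 the same numbers, and pair 3 had 2 higher (16.7%) and 0 lower. These became 5 and 5 in pair 1 and 5 and 0 in pair 3 without the 2 libraries. ELOVL7, an elongase of long saturated chains, rose in pair 1 (3.51 ± 0.113 to 8.47 ± 0.755 reads per M; log2 change 1.16, adjusted p = 6.79e-07) and in pair 3 (2.30 ± 0.362 to 5.38 ± 0.108; 1.08, adjusted p = 2.26e-06; 0.98 without the 2 libraries), and changed by -1.26 in pair 2. FADS3, another gene of the FADS cluster, rose in pair 1 (0.53, adjusted p = 0.00346) and was higher in pair 2 (49.7 ± 2.90 to 91.0 ± 1.77 reads per M), where FADS1 and FADS2 were lower.

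Among genes of substrate and NADPH supply, 12 of them tested, 0 rose in pair 1 against 5 lower (41.7%), while pair 2 had 1 higher (8.33%) and 7 lower (58.3%) and pair 3 had 1 higher (8.33%) and 4 lower (33.3%). With the 2 libraries left out, 0 rose and 7 fell in pair 1 and 2 and 5 in pair 3. ACSS3, a mitochondrial short-chain acyl-CoA synthetase, fell in pairs 1 (log2 change -1.02, adjusted p = 9.04e-04) and 3 (-1.802, adjusted p = 5.44e-06; -2.24 without the 2 libraries), and changed by -0.99 in pair 2. Malic enzyme ME1, a source of NADPH, fell by 0.41 in pair 1 (adjusted p = 0.00289) and had a log2 change of -0.73 in pair 3 (adjusted p = 3.05e-05; -0.87 without the 2 libraries). ACACB, the carboxylase that makes the malonyl-CoA which restrains oxidation, rose by 0.65 in pair 3 (adjusted p = 0.00646; 0.72 without the 2 libraries), a call lost with only the clones compared (adjusted p = 0.357). Its level was 6.21 ± 0.395 reads per M in 2N-2 and 11.2 ± 0.732 in 4N-2, while in pair 1 it was 5.25 ± 0.390 and 4.02 ± 0.181 (log2 change -0.35, adjusted p = 0.0794). The medians of the list were -0.23, -0.46 and -0.24 in pairs 1, 2 and 3.

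Lipid droplet and lipolysis genes, 10 of them tested, had 7 higher (70.0%) and 1 lower (10.0%) in pair 2, 0 and 1 (10.0%) in pair 1, and 0 and 1 (10.0%) in pair 3. In pair 1, 0 rose and 5 fell without the 2 libraries, and in pair 3 1 and 1. In pair 2 the lower gene was PNPLA3, a lipid droplet protein and SREBP target, at 183 ± 11.8 reads per M in 2N-2 and 34.3 ± 4.83 in 4N-2, and MGLL, the monoglyceride lipase, went from 37.1 ± 4.40 to 90.3 ± 2.70. LIPE, hormone-sensitive lipase, fell in pair 1 (1.84 ± 0.208 to 0.666 ± 0.0641; log2 change -1.01, adjusted p = 4.71e-06) and changed by 0.86 in pair 2. PLIN2, a lipid droplet coat protein, fell by 0.40 in pair 3 (adjusted p = 0.0252), a call lost without the 2 libraries that stood apart (-0.18, adjusted p = 0.0591); its level was 39.5 ± 1.35 reads per M in 2N-2 and 56.5 ± 2.13 in 4N-2.

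Glycerolipid synthesis genes counted 2 higher (15.4%) and 4 lower (30.8%) of 13 in pair 1, 6 (46.2%) and 3 (23.1%) in pair 2, and 1 (7.69%) and 0 in pair 3. Leaving out the 2 libraries gave 3 and 5 in pair 1 and 2 and 3 in pair 3. GPAM, the mitochondrial acyltransferase that begins glycerolipid synthesis, was at 293 ± 40.4 reads per M in 2N-2 and 51.0 ± 6.34 in 4N-2, a log2 change of -2.51, which SCD also had. LPIN3, a phosphatidate phosphatase, rose in pair 1 (0.65, adjusted p = 0.00910) and pair 3 (1.38, adjusted p = 2.71e-05; 1.15 without the 2 libraries) and changed by 2.24 in pair 2. GPAT3 fell by 0.98 in pair 1 (adjusted p = 3.77e-05) and was higher in pair 2, at 27.9 ± 3.11 reads per M in 2N-2 and 44.1 ± 3.00 in 4N-2.

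Of 13 uptake and activation genes, pair 1 had 0 higher and 2 lower (15.4%), pair 2 had 3 (23.1%) and 4 (30.8%), and pair 3 had 0 and 1 (7.69%). The counts without the 2 libraries were 3 and 2 in pair 1 and 1 and 4 in pair 3. ACSL5, an acyl-CoA synthetase, fell by 1.43 in pair 1 (3.25 ± 0.413 to 0.890 ± 0.175 reads per M, adjusted p = 2.81e-06) and by 1.86 in pair 3 (3.89 ± 0.508 to 0.718 ± 0.254, adjusted p = 1.78e-07; -2.09 without the 2 libraries). In pair 2 it was higher in the tetraploid clone, at 7.20 ± 0.673 and 10.4 ± 0.673 reads per M. The 25 oxidation genes split into 4 higher (16.0%) and 3 lower (12.0%) in pair 1, 6 and 6 (24% each, near the share of all genes) in pair 2, and 0 and 2 (8%) in pair 3. Without the 2 libraries, 11 and 6 passed in pair 1 and 1 and 5 in pair 3. ACADS, the short-chain acyl-CoA dehydrogenase, rose by 1.25 in pair 1 (adjusted p = 1.95e-05) from 0.709 ± 0.188 to 2.36 ± 0.255 reads per M, and was at 0.454 ± 0.111 and 2.86 ± 0.129 in the clones of pair 2. CPT2, which completes the carnitine shuttle into mitochondria, was at 16.6 ± 0.635 and 8.12 ± 0.536 in pair 2.

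Over the 18 libraries, which group by clone, the log2 levels of SCD ran with those of FADS2 (Pearson r of 0.922) and FASN (0.916) and against those of G0S2 (-0.937); 4N-2 set much of the range of all 4 genes. The tested genes most like SCD, besides the identifier named above, were VEGFA (r of 0.989), TMEM135 (0.989), BICC1 (0.987) and ARL15 (0.985). Those most like G0S2 were PSPC1 (0.985), GATA2 (0.981), PDE2A (0.973), PSPC1P1 (0.968) and CAV1 (0.965), of which PSPC1P1 bears the name of a PSPC1 pseudogene and may share its reads.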

How the data were processed

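The authors deposited 1 RPKM value per gene and library; per the submitters' processing notes, CASAVA 1.8.2, TopHat2, edgeR and hg19 were used. Annotation and strand use in counting are not given in the sources used here. The deposited RPKM implied a gene length equal to the genomic span, introns included, within 0.5% for 82.4% of genes with over 50 reads, so whole reads were recovered from the value steps (within 0.01 reads) and divided by the implied divisor, because per-span values press genes with long introns below a minimum. The divisors are not totals: 9 of 18 libraries held more reads than theirs. Symbols came from GENCODE v29.

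Genes with 1 read per M or more in 3 or more libraries (17701) were fitted with limma 3.58.1 (R 4.3.3) on log2(reads per M + 0.5), with a mean per clone, 1 shared spread with a trend, two-sided tests and Benjamini-Hochberg adjustment; an adjusted p below 0.05 passed. The script was tested on simulated data. Replicates are libraries of 1 clone, so p-values measure their spread. Figures used matplotlib 3.10.9. Named were the members, all tested regulators, of each other list up to 3 passing genes per pair with the widest change and no overlap (a subset is printed), and the 5 genes most like SCD and G0S2. Members and lists were chosen with earlier results of these data known. Alternatives were another scale, pseudocounts, filter, scaling, limma-voom, single pairs, a replicate block and libraries left out.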

Additional observations from a re-analysis of the deposited data

Results flagged for a closer look

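SCD and ELOVL6 differed between pairs 1 and 3 by a test of the difference itself (limma, adjusted over all genes): pair 1 minus pair 3 was 0.96 for SCD (adjusted p = 0.0300, a call lost in 10 alternatives) and -0.70 for ELOVL6 (adjusted p = 0.00295). SCD was higher in all 3 libraries of 4N-1 and lower in all 3 of 4N-2 than in their diploid clones, and its log2 change differed by 3.21 between pairs 1 and 2; this difference was not tested. G0S2 had the opposite pattern, with a difference of -5.52 between pairs 1 and 2 and of 4.79 between pairs 2 and 3, not tested either. No cause was tested for any of these values.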

How the results depend on the processing

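The number of the 9 genes past the threshold was 3 in pair 1, 1 in pair 3, 2 for pair 1 against pair 3, 0 for 2N-3 against 2N-1 and 2 for 4N-3 against 4N-1. With a replicate block these counts were 3, 1, 2, 0 and 2. Same-letter deviations from the clone means correlated at -0.24 to 0.40 within the pairs, and at 0.099, 0.291 and 0.405 in pair 2. Different letters were not compared, so whether libraries of the same letter share an effect was not tested. With only the clones compared, 5 passed in pair 1, 0 in pair 3 and 1 for pair 1 against pair 3; G0S2, MBTPS1, ME1 and ACACB then lost their calls in pair 3. On the RPKM scale, whose filter left 7 genes, 1 passed for pair 1 against pair 3 and 1 for 4N-3 against 4N-1, and with no filter on low values 1 passed for pair 1 against pair 3. Without the 2 libraries that stood apart, 5 passed in pair 1, 5 in pair 3, 7 for pair 1 against pair 3 and 8 for 4N-3 against 4N-1. With single libraries left out, the counts were 2 to 5 in pair 1, 1 to 4 in pair 3, 1 to 6 for pair 1 against pair 3 and 2 to 6 for 4N-3 against 4N-1, the highest of the last 2 without C of 4N-3. Of all genes tested, 4371 passed in pair 1, 8377 in pair 2, 1477 in pair 3 and 465 for 2N-3 against 2N-1; on the RPKM scale these were 2027, 3641, 330 and 79 (73.4% of the last higher, against 59.1%), with only the clones compared they were 8947 in pair 1, 201 in pair 3 and 68 for 2N-3 against 2N-1, and without the 2 libraries 9026, 4369 and 904. With single libraries left out they ran from 2887 (without C of 2N-1) to 7830 (without A of 2N-3) in pair 1, from 868 (without A of 4N-3) to 2974 (without C of 2N-3) in pair 3, and from 229 (without B of 2N-1) to 1514 (without C of 2N-3) for 2N-3 against 2N-1.

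Log2 changes that turned sign did not pass before or after. Without the 2 libraries, pair 3 gave -0.046 for ACLY, 0.098 for MLX and 0.081 for NR1H2. ACSS2 in pair 1 was -8.6e-05 with limma-voom and -0.016 with median-ratio scaling. With single libraries left out, pair 1 gave -0.055 to 0.082 for ACSS2 and -0.016 to 0.065 for SCAP, and pair 2 gave -0.0045 to 0.073 for MBTPS1 and -0.067 to 0.019 for SCAP. Pair 3 then gave -0.052 to 0.213 for ACLY, -0.037 to 0.155 for ELOVL6, -0.276 to 0.020 for FASN, -0.080 to 0.0087 for MID1IP1, -0.149 to 0.036 for MLX, -0.201 to 0.089 for NR1H2, -0.298 to 0.044 for PPARA and -0.187 to 0.039 for SREBF2. The cause was not tested. Low levels move with the pseudocount: with limma-voom, a pseudocount of 0.1 and a pseudocount of 1, the log2 change was 4.24, 4.17 and 3.61 for G0S2 in pair 2, 2.65, 2.44 and 1.41 for ACADS in pair 2, and -2.48, -2.33 and -1.51 for ACSL5 in pair 3.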
